A study of Mus musculus with 9 samples.

Results

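The 45 genes described here mark cells that are copying their DNA or dividing. They were chosen by symbol from a deposited table of 54146 genes, and each symbol had a single row. By textbook function, 19 were placed in S phase, which includes the G1/S switch that leads into it, and 26 in G2/M, the stretch from the end of replication to cell division. All 45 passed the filter on low counts, with between 663 and 49907 reads over all libraries.

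Messenger RNA was taken from mouse T follicular helper (Tfh) cells, sorted from Peyer's patches by CD4, CXCR5 and PD1. The libraries were made from 5 samples with genotype WT/Mut at Tgfbr1, a gene for a subunit of the TGF-beta receptor, and from 4 samples of WT littermates. Below they are called WT/mut replicates 6 to 10 and WT replicates 1, 3, 4 and 5. The labels give no strain, age, sex, litter or batch and do not describe the mutant allele. They do not state that each library is a separate animal, so p-values measure the spread between these libraries, which may be technical.

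Before a cell replicates its DNA, the kinase partner cyclin E and the E2F factors turn on genes for origin licensing, the MCM helicase and nucleotide supply. Later, cyclin A, cyclin B and Cdk1 drive entry into mitosis, kinetochores and spindle motors move the chromosomes, and the anaphase-promoting complex ends mitosis by destroying its regulators. Tfh cells divide as they differentiate, and those in germinal centres sit beside B cells that divide fast. In a bulk library, more dividing cells and more of these transcripts per dividing cell cannot be told apart.

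Total counts lay between 29488783 in WT/mut replicate 9 and 43872686 in WT replicate 5, and WT/mut replicate 7 had 30143 genes detected against 17904 to 20264 in the others. The T cell gene Cd3e stood between 195 and 281 CPM (a library's counts scaled to a common total) in all 9 libraries, and the sorting marker gene Cxcr5 between 1110 and 1380 CPM. Of 10 Tfh and T cell markers, 3 had a higher and 7 a lower fitted level in WT/mut than in WT. The B cell marker Cd74 was also present, at 567 to 1425 CPM, and germinal centre B cells are themselves a source of division transcripts.

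Promoters of the members were compared between the phases. RefSeq windows on GRCm38.p6, from 250 bases before to 50 bases after each start site, were found for 36 of the 45 members (38 windows). Short motifs of 3 kinds were searched on both strands. The E2F motif (TTTCCCGC, TTTCGCGC, TTTGCCGC or TTTGGCGC) is bound by E2F factors at G1/S genes. The cell cycle genes homology region, CHR (TTTGAA or TTCGAA), is bound by complexes that silence mitotic genes in resting cells and activate them in G2. The CCAAT box (CCAAT) is bound by NF-Y. An E2F motif lay in 7 of 16 S phase members and 2 of 20 G2/M members, against 2.61% of all 27025 genes with a window. A CHR lay in 16 of 20 G2/M members and 3 of 16 S phase members, against 21.7% of all genes. A CCAAT box lay in 18 of 20 G2/M members and 10 of 16 S phase members, against 41.1% of all genes, and all 16 G2/M members with a CHR also had a CCAAT box. Matches may overlap each other and are descriptions of letters, not of bound sites.

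The following stretches show these motifs in capitals in 3 G2/M genes and 3 S phase genes to which the results below return. Each is the 150 bases that end just before the start site, written 5′ to 3′ on the gene's strand. The mitotic motor gene Kif11 (chr19:37376232-37376381, plus strand) has a CCAAT box starting 45 and a CHR starting 19 bases before the start. The division marker gene Mki67 (chr7:135716380-135716529, minus strand) has a pair of CHR matches 116 and 98 bases before it. Top2a, the gene of DNA topoisomerase II alpha (chr11:99024190-99024339, minus strand), has 3 CHR and 4 CCAAT matches. Mcm6, a helicase subunit gene (chr1:128359706-128359855, minus strand), has 3 E2F matches, starting 110, 106 and 47 bases before the start, the first pair overlapping, and no CHR. Cdc6, a helicase loading factor gene (chr11:98908001-98908150, plus strand), has a single E2F match 138 bases before it; the GENCODE model of this gene starts further upstream, and no annotated exon lies in the stretch. E2f8, the gene of a repressor of the E2F family (chr7:48881597-48881746, minus strand), is an S phase member with a CHR, 20 bases before its start.
Kif11: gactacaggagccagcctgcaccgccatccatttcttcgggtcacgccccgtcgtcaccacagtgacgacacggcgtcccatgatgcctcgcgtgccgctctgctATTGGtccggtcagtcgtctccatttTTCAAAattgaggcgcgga
Mki67: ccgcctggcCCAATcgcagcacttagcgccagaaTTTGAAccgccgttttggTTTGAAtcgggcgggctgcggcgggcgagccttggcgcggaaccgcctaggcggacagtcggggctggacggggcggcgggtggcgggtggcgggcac
Top2a: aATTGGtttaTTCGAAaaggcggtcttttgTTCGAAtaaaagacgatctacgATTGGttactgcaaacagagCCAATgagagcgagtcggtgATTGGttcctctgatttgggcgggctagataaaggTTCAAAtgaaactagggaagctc
Mcm6: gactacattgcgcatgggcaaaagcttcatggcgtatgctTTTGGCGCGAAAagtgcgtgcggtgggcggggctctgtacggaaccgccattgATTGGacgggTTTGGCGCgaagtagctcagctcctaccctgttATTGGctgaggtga
Cdc6: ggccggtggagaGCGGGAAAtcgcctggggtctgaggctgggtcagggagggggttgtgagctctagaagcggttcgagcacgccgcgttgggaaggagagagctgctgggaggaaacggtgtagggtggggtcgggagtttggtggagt
E2f8: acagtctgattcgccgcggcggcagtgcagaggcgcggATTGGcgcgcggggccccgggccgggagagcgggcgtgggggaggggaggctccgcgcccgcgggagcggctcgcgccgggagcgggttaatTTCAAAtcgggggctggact

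In WT cells, the median S phase member stood at 10.95 CPM per kb of exon and the median G2/M member at 2.14 CPM per kb. The chromatin gene Hmgb2 had the highest level per length, at 47.5 ± 6.5 CPM per kb (SD, n = 4), followed by the helicase gene Mcm4 at 38.7 ± 2.9, the sliding clamp gene Pcna at 35.2 ± 5.1 and Mcm6 at 32.3 ± 2.5 CPM per kb. Pcna differed from Mcm4 and from Mcm6 by less than its own SD. E2f8 and the kinetochore gene Cenpf were lowest, at 0.217 ± 0.111 and 0.235 ± 0.162 CPM per kb, and did not differ beyond their spread.

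Between genotypes, no member passed the test over all genes. The edgeR quasi-likelihood F test with Benjamini-Hochberg adjustment called 0 of 45 members, against 0.122% of the 15521 genes tested (0.0322% higher in WT/mut), and the lowest adjusted p among members was 0.293. DESeq2 also called 0 members, while it called 499 of the 32193 genes it tested. Below that threshold, 39 of 45 members had a higher fitted level in WT/mut cells, with a median log2 fold change (WT/mut over WT) of 0.30, against 50.2% of all tested genes and a median of 0.00150 over them. At an unadjusted p under 0.05 there were 7 members, all higher in WT/mut (15.6%), where 5.69% of all tested genes were higher at that level. Uhrf1, Bub1b, Ccnb2, Kif11, Mki67, Cenpe and Kif20a made up these 7. DESeq2 put 8 members under that level, where it put 8.71% of all genes it tested, in either direction.

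The phases contributed unequally to these counts. Of the 26 G2/M members, 25 had a positive fold change, the median was 0.40, and 6 (23.1%) had an unadjusted p under 0.05. Of the 19 S phase members, 14 were positive, the median was 0.18, and 1 (5.26%) had an unadjusted p under 0.05. Of all tested genes, 5.69% were higher at that level, so the S phase share was near that of all genes. Without WT/mut replicate 9, 1 of the 26 G2/M members was at that level, where 9.46% of all genes tested in that fit were, in either direction. The difference between the phases was not tested.

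A single library, WT/mut replicate 9, held the highest value of the 9 libraries in 31 of 45 members, in 23 of 26 G2/M members and in 8 of 19 S phase members. Relative to the WT mean, its median member was 0.98 higher on the log2(CPM + 1) scale in G2/M and 0.36 higher in S phase. In G2/M the other WT/mut libraries had medians of 0.23, 0.26, -0.02 and 0.27 for replicates 6, 7, 8 and 10. The WT libraries stood at -0.25, 0.00, 0.06 and 0.23 for replicates 1, 3, 4 and 5, so the groups overlapped. In S phase the WT/mut medians were 0.18, 0.04, 0.07, 0.36 and 0.18, and the WT medians -0.02, 0.00, -0.04 and 0.03. The S phase ranges did not overlap, though the gap between them was narrow. The WT libraries are themselves the reference of these ratios, which holds their medians near 0. Summed CPM of the same S phase members overlapped, at 982 to 1295 in WT/mut and 1007 to 1108 in WT libraries. At the other end, WT replicate 1 held the lowest value in 14 of 45 members, 11 of them G2/M genes.

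**Figure D1:**
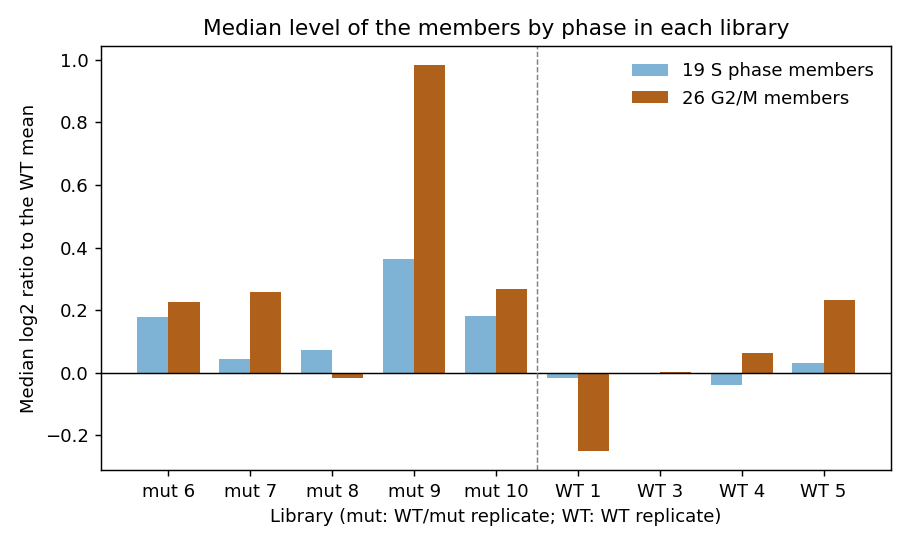
Bars give the median over 19 S phase members (blue) and 26 G2/M members (brown) of log2(CPM + 1) minus the mean of the 4 WT libraries, for each of the 9 libraries on the x axis. WT/mut replicate 9 reaches 0.98 in G2/M, and WT replicate 1 is lowest at -0.25.

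Summed over genes, the S phase members took 982 to 1295 CPM per WT/mut library and 1007 to 1108 CPM per WT library. The G2/M members took 401 to 727 CPM in the WT/mut group and 315 to 462 CPM in WT libraries. The ratio of the G2/M sum to the S phase sum was 0.438 ± 0.074 in WT/mut (SD, n = 5) and 0.361 ± 0.058 in WT cells (SD, n = 4). Single libraries ranged from 0.369 to 0.561 in WT/mut and from 0.295 to 0.423 in WT, with overlap. All members together made up 0.132% to 0.193% of a library's counts.

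**Figure D2:**
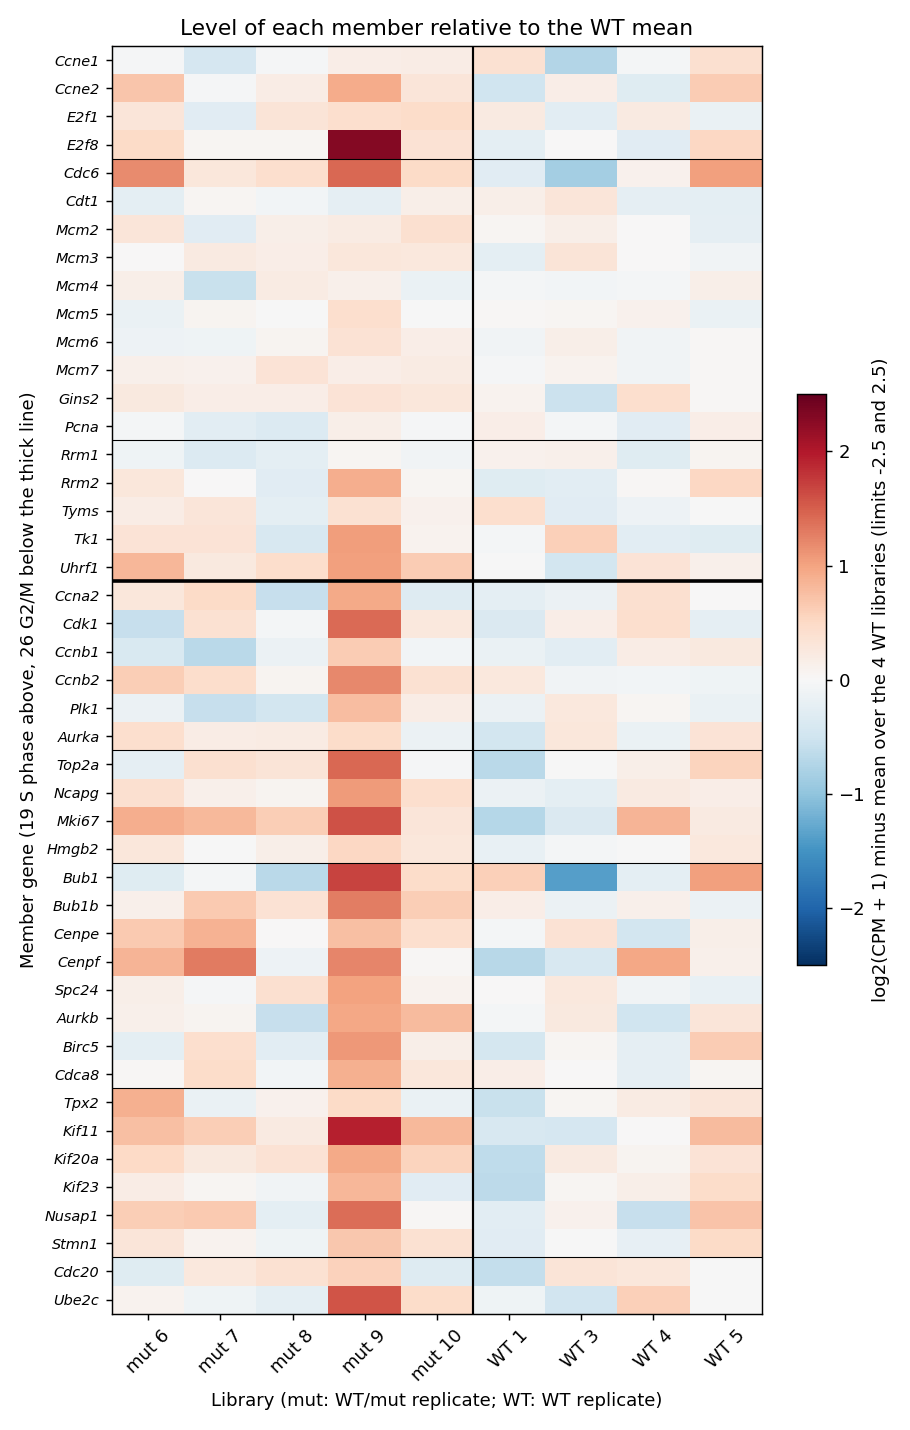
Colour gives log2(CPM + 1) of each of the 45 members (rows, grouped by role) minus its mean over the 4 WT libraries, in each of the 9 libraries (columns); red is higher and blue is lower than the WT mean. The column of WT/mut replicate 9 is red in most G2/M rows, while the rows of the Mcm genes are pale in most columns.

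Without WT/mut replicate 9 the counts shrank. Of 45 members, 33 were then positive with a median log2 fold change of 0.17, and 2 (Uhrf1 and Bub1b) had an unadjusted p under 0.05, where 9.46% of the 15204 genes tested in that fit had one in either direction. The G2/M median was 0.18 (21 of 26 positive) and the S phase median 0.10 (12 of 19 positive). The fitted value of all 26 G2/M members and of 16 S phase members was lower without this library. It held the highest value in 31 of 45 members, so leaving it out had to lower most of these values. Without WT/mut replicates 7 and 9 together, a choice made after the data were seen, 28 members were positive. In that fit 6.11% of the 15506 genes tested had an unadjusted p under 0.05 in either direction, and 1 member did. That count was 4 without WT/mut replicate 6, 3 without WT replicate 1 and 11 without WT replicate 5, where 9.85%, 8.79% and 10.6% of all genes tested in those fits had such a p in either direction. The counts of 4 and 3 are at or below those shares in either direction, and the count of 11 is above its share. All members in these counts were higher in WT/mut. The share of genes that were higher alone was not counted in those fits.

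**Figure D3:**
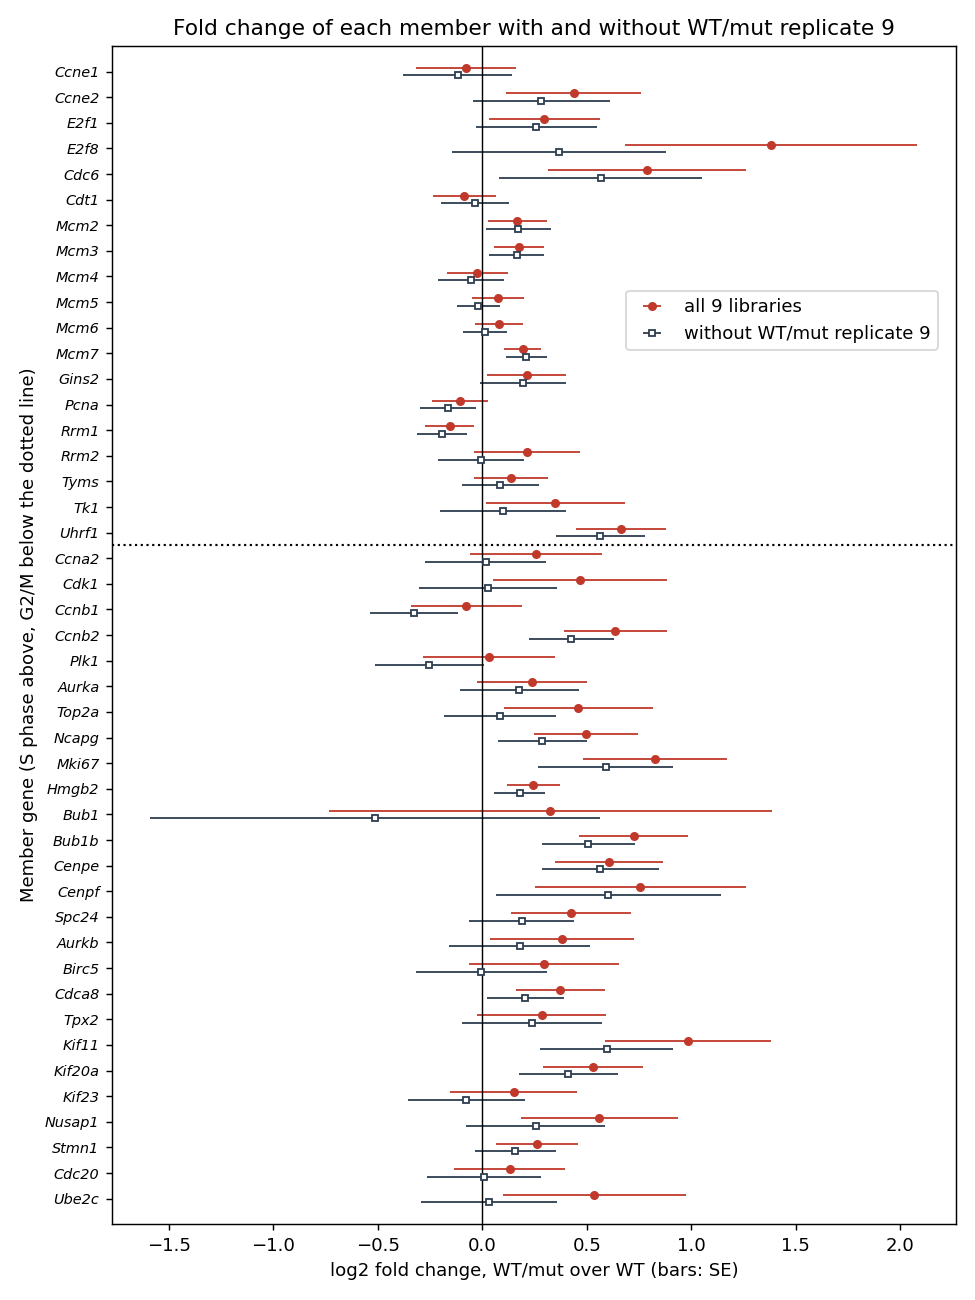
Points give the log2 fold change (WT/mut over WT, x axis) of each of the 45 members with bars of 1 SE, from all 9 libraries (filled circles) and without WT/mut replicate 9 (open squares). All 26 G2/M points lie further left without replicate 9, and those of Bub1, Birc5, Kif23 and Plk1 then fall below 0.

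The G1/S switch was measured through 4 genes. Ccne1 and Ccne2 encode the cyclins E that activate Cdk2. Ccne1 (ENSMUSG00000002068.16) stood at 16.4, 12.3, 16.4, 19.01 and 19.2 CPM in WT/mut replicates 6 to 10. In WT replicates 1, 3, 4 and 5 it stood at 22.0, 9.76, 16.3 and 22.3 CPM. The WT range enclosed the whole WT/mut range, and the log2 fold change was -0.08 ± 0.24 (SE; edgeR adjusted p = 0.918). Ccne2 was at 0.44 ± 0.32 with overlapping groups (edgeR adjusted p = 0.578).

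E2f1, an activator at the start of S phase, stood at 6.07, 3.67, 6.13, 6.66 and 6.82 CPM in WT/mut and at 5.64, 3.74, 5.67 and 4.09 CPM in WT libraries. WT/mut replicates 6, 8, 9 and 10 lay above every WT library and replicate 7 lay below every WT library, for a log2 fold change of 0.30 ± 0.27 (edgeR adjusted p = 0.653). E2f8 (ENSMUSG00000046179.17), which represses E2F targets later in the cycle, was measured at 1.95, 1.19, 1.19, 9.44 and 1.73 CPM in WT/mut libraries. Its WT values were 0.792, 1.13, 0.757 and 2.05 CPM. The log2 fold change of 1.38 ± 0.70 (edgeR adjusted p = 0.448), the widest of all 45, came with 1 library, since it was 0.37 ± 0.51 without WT/mut replicate 9.

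Origin licensing and the replisome, with 10 members, had the lowest median of the 8 roles. Cdc6 and Cdt1 load the Mcm2 to Mcm7 helicase onto origins, Gins2 belongs to the complex that activates it, and Pcna is the clamp that holds DNA polymerase. Of these 10, 7 were positive and 3 negative, with a median log2 fold change of 0.12, and 0 reached an unadjusted p under 0.05 in edgeR. The lowest p belonged to Mcm7 (ENSMUSG00000029730.16, chromosome 5, 138164583 to 138172422, minus strand).

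Mcm7 stood at 91.4, 91.2, 107, 94.2 and 97.1 CPM in WT/mut replicates 6 to 10. The WT values were 82.3, 89.4, 79.4 and 85.4 CPM. Every WT/mut library lay above every WT library, which held for 1 of the 45 members (4.46% of all tested genes had separate ranges and 2.09% were higher in WT/mut), and the log2 fold change was 0.19 ± 0.09 (unadjusted p = 0.0515, edgeR adjusted p = 0.412). Exons of Mcm7 overlap those of Ap4m1 and Cops6 on the other strand, and the library kit does not mark the strand.

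Mcm4 was at 155, 94.5, 159, 152 and 123 CPM in WT/mut libraries, with replicate 7 well below the others. WT libraries gave 134, 132, 135 and 154 CPM, and the log2 fold change was -0.02 ± 0.15 (edgeR adjusted p = 0.959). Pcna stood at 81.5, 70.0, 66.3, 93.5 and 81.7 CPM in WT/mut and at 94.3, 81.2, 68.5 and 94.2 CPM in WT cells. The groups overlapped over nearly their whole range (-0.11 ± 0.13, edgeR adjusted p = 0.769). Cdt1 gave 28.6, 35.0, 32.2, 28.7 and 37.6 CPM against 37.6, 42.3, 29.04 and 28.6 CPM (-0.09 ± 0.15, edgeR adjusted p = 0.841). The other helicase genes, Mcm2, Mcm3, Mcm5 and Mcm6, lay between 0.07 and 0.18, Gins2 at 0.21 and Cdc6, at 7.11 ± 3.04 against 4.11 ± 2.93 CPM, at 0.79 ± 0.47.

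Nucleotide supply was represented by Rrm1 and Rrm2, the subunits of ribonucleotide reductase, and by the thymidylate genes Tyms and Tk1. Uhrf1, which recruits the maintenance DNA methyltransferase to newly copied DNA, was grouped with them. Rrm1 had the most negative value of all members, with 141, 119, 128, 156 and 142 CPM in WT/mut and 164, 167, 123 and 158 CPM in WT libraries. These ranges overlapped (-0.16 ± 0.12, edgeR adjusted p = 0.590). Rrm2 was at 0.21 ± 0.25, Tyms at 0.14 ± 0.18 and Tk1 at 0.35 ± 0.33, and each of the 3 overlapped between groups.

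Uhrf1 (ENSMUSG00000001228.14, chromosome 17, 56303321 to 56323486, plus strand) had the lowest p of the 45. It was measured at 25.5, 16.7, 19.3, 29.3 and 22.2 CPM in WT/mut replicates 6 to 10. In WT replicates 1, 3, 4 and 5 it was measured at 13.8, 9.88, 17.95 and 15.4 CPM. All WT/mut libraries but replicate 7 exceeded the highest WT library, and the log2 fold change was 0.66 ± 0.21 (unadjusted p = 0.00978, edgeR adjusted p = 0.293). Without WT/mut replicate 9 it was 0.56 ± 0.21 (edgeR adjusted p = 0.469).

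**Figure D4:**
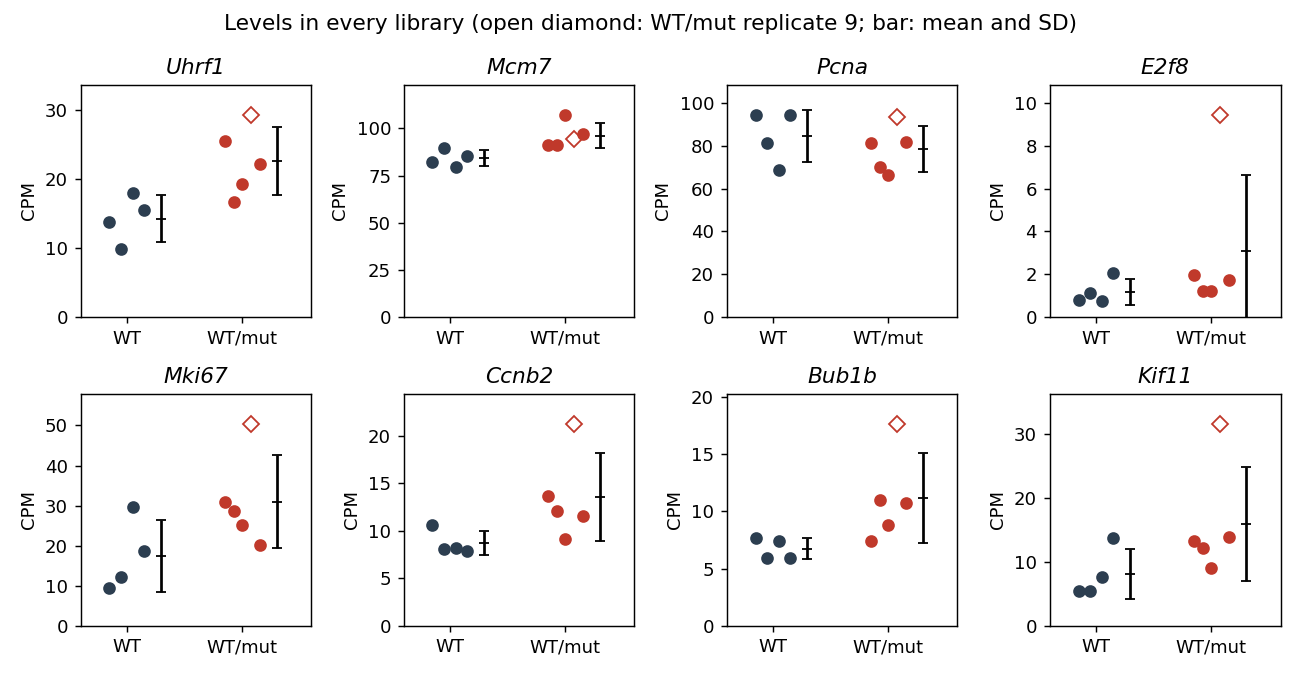
Each panel gives the CPM (y axis, from 0) of a member in the 4 WT libraries (dark circles) and the 5 WT/mut libraries (red), with mean and SD beside each group (the lower SD bar of E2f8 is cut at 0); the open diamond is WT/mut replicate 9. Mcm7 has separate groups, Pcna overlaps, and E2f8 and Kif11 show replicate 9 far above the rest at 9.44 and 31.5 CPM.

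The mitotic kinases and cyclins (6 members) had log2 fold changes from -0.08 to 0.64. Cdk1, the kinase that drives mitosis, stood at 3.34, 7.47, 5.25, 16.2 and 6.74 CPM in WT/mut and at 4.02, 6.28, 7.71 and 4.52 CPM in WT libraries. WT/mut replicate 6 was the lowest of all 9 libraries and replicate 9 the highest. The log2 fold change of 0.47 ± 0.42 (edgeR adjusted p = 0.651) was 0.03 ± 0.33 without replicate 9.

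Its partners, the cyclins B, were measured through Ccnb1 and Ccnb2. Ccnb1 was the single G2/M member with a negative value (-0.08 ± 0.27, edgeR adjusted p = 0.926), at 10.8, 8.60, 12.9, 22.8 and 13.6 CPM in WT/mut and at 12.6, 11.7, 16.5 and 17.1 CPM in WT libraries. Replicate 9 was above all WT libraries while replicates 6 and 7 were below all of them. Ccnb2 (ENSMUSG00000032218.7) stood at 13.7, 12.0, 9.10, 21.3 and 11.5 CPM in WT/mut and at 10.6, 8.10, 8.21 and 7.89 CPM in WT libraries. All WT/mut libraries but replicate 8 exceeded the highest WT library (0.64 ± 0.25, unadjusted p = 0.0246, edgeR adjusted p = 0.349). Whether the values of the 2 cyclins B differ was not tested. Ccna2, the cyclin A of S phase and G2, was at 0.26 ± 0.32, the kinase gene Aurka at 0.24 ± 0.26 and the kinase gene Plk1 at 0.03 ± 0.31. Plk1 turned to -0.25 ± 0.26 without WT/mut replicate 9.

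Chromosome structure genes (4 members) were all positive. Mki67 (ENSMUSG00000031004.8, chromosome 7, 135689784 to 135716361, minus strand), whose protein Ki-67 coats mitotic chromosomes and marks cycling cells, gave 30.9, 28.6, 25.0, 50.4 and 20.03 CPM in WT/mut replicates 6 to 10. Its WT values were 9.37, 12.2, 29.5 and 18.8 CPM. WT replicate 4 lay inside the WT/mut range, and the other WT libraries lay below it. The log2 fold change was 0.83 ± 0.35 (unadjusted p = 0.0353, edgeR adjusted p = 0.380) and 0.59 ± 0.32 without WT/mut replicate 9.

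Top2a, which untangles replicated DNA, stood at 14.1, 22.1, 20.9, 46.5 and 16.2 CPM in WT/mut and at 9.97, 16.4, 18.5 and 24.7 CPM in WT libraries. Apart from replicate 9, every WT/mut library lay inside the WT range, and the log2 fold change of 0.46 ± 0.36 (edgeR adjusted p = 0.601) was 0.08 ± 0.27 without it. Ncapg, a condensin subunit gene, was at 0.50 ± 0.25, and Hmgb2, a DNA-bending protein gene, at 0.24 ± 0.13, from 143 ± 20 CPM in WT to 169 ± 23 CPM in WT/mut cells.

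The kinetochore, checkpoint and passenger complex genes (8 members) were all positive, between 0.30 and 0.76. Bub1b, the gene of the spindle checkpoint protein BubR1 (ENSMUSG00000040084.9, chromosome 2, 118598211 to 118641591, plus strand), had the lowest p of the G2/M members. It was measured at 7.43, 11.04, 8.83, 17.7 and 10.8 CPM in WT/mut and at 7.69, 5.94, 7.42 and 5.93 CPM in WT libraries. WT/mut replicates 7 to 10 exceeded the highest WT library, and replicate 6 did not (0.72 ± 0.26, unadjusted p = 0.0176, edgeR adjusted p = 0.329). Without WT/mut replicate 9 the value was 0.51 ± 0.22, at an unadjusted p of 0.0444 and an edgeR adjusted p of 0.511.

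Cenpe, a kinetochore motor gene, was at 9.94 ± 2.33 CPM in the WT/mut group (SD, n = 5) against 6.53 ± 1.71 CPM (SD, n = 4) in WT libraries, with a log2 fold change of 0.61 ± 0.26, and of 0.56 ± 0.28 without replicate 9. Cenpf, another kinetochore gene, was at 0.76 ± 0.51, and Spc24, a subunit of the Ndc80 complex, at 0.42 ± 0.29. The passenger complex genes Aurkb, Birc5 (survivin) and Cdca8 (borealin) lay at 0.38, 0.30 and 0.37. Bub1, the checkpoint kinase gene, was the least precise member. It stood at 1.08, 1.51, 0.610, 7.30 and 2.58 CPM in WT/mut, and at 2.88, 0, 1.19 and 4.25 CPM in WT libraries. WT replicate 3 had no read of it, and the log2 fold change of 0.33 ± 1.06 turned to -0.51 ± 1.08 without WT/mut replicate 9.

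Spindle and cytokinesis genes (6 members) were all positive, between 0.15 and 0.99. Kif11 (ENSMUSG00000012443.3), the motor that pushes spindle poles apart, stood at 13.3, 12.1, 8.97, 31.5 and 13.9 CPM in WT/mut libraries. Its WT values were 5.48, 5.39, 7.57 and 13.7 CPM. WT replicate 5 lay among the WT/mut libraries, while the other WT libraries lay below all of them (0.99 ± 0.40, unadjusted p = 0.0302, edgeR adjusted p = 0.368). Without WT/mut replicate 9 its value was 0.60 ± 0.32. Kif20a, a motor of cytokinesis, was at 15.8 ± 3.3 CPM in the WT/mut group and 10.9 ± 3.2 CPM in WT cells (0.53 ± 0.24). Its exons overlap those of Cdc23 on the other strand. Its partner in cytokinesis, Kif23, was at 0.15 ± 0.30, the spindle assembly genes Tpx2 and Nusap1 at 0.28 ± 0.31 and 0.56 ± 0.37, and the microtubule-destabilising gene Stmn1 at 0.26 ± 0.20.

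Among partners of the anaphase-promoting complex, Ube2c, its ubiquitin-conjugating enzyme gene, stood at 5.65, 4.80, 4.30, 17.6 and 7.59 CPM in WT/mut and at 4.81, 3.52, 8.41 and 5.24 CPM in WT libraries. Without replicate 9, its log2 fold change went from 0.54 ± 0.44 to 0.03 ± 0.33. Cdc20, the activator that starts anaphase, gave 9.38, 14.3, 15.6, 17.9 and 9.15 CPM against 7.44, 14.9, 14.4 and 11.7 CPM. WT/mut replicates 8 and 9 lay above every WT library and WT replicate 1 below every WT/mut library, with the rest overlapping (0.13 ± 0.27, edgeR adjusted p = 0.867).

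Other genes of the same phases were taken from lists chosen by function. Of 38 other S phase genes, 21 were positive, with a median log2 fold change of 0.07; 3 were higher and 2 lower at an unadjusted p under 0.05, near the 5.69% higher and 6.46% lower of all tested genes, and 0 were called by edgeR. Those of lowest p were Dtl, which targets Cdt1 for destruction (0.82 ± 0.25, edgeR adjusted p = 0.278), and the deubiquitinase gene Usp1 (-0.38 ± 0.12, edgeR adjusted p = 0.299). Of 50 other G2/M genes, 36 were positive, with a median of 0.24; 4 were higher and 1 lower at that level, against the same 5.69% and 6.46% of all tested genes, and 0 were called by edgeR. Lowest in p were G2e3 (-0.55 ± 0.16, edgeR adjusted p = 0.262) and Foxm1, the transcription factor of G2/M genes, at 8.72 ± 3.94 CPM in the WT/mut group and 3.85 ± 1.06 CPM in WT cells (1.18 ± 0.38, edgeR adjusted p = 0.290). WT/mut replicate 9 held the highest value in 32 of the 50 G2/M genes and in 15 of the 38 S phase genes.

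Brakes of the cycle lay on both sides of 0. Of 9 tested inhibitors of cyclin-dependent kinases and pocket proteins, 4 were positive and 5 negative (median -0.00064). At an unadjusted p under 0.05, 0 were higher and 2 lower, against 5.69% and 6.46% of all tested genes, and 0 were called by edgeR. Cdkn1a, the gene of the inhibitor p21, had the lowest p, at 22.2 ± 2.2 CPM in the WT/mut group and 32.4 ± 6.6 CPM in WT cells (-0.54 ± 0.15, edgeR adjusted p = 0.247). Cdkn2d was at -0.45 ± 0.20 (edgeR adjusted p = 0.407).

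Most markers of B cells were also highest in WT/mut replicate 9. All 15 B cell markers were positive, 4 of them at an unadjusted p under 0.05, with a median log2 fold change of 0.61, and WT/mut replicate 9 held the highest value in 12 of the 15. Of all tested genes, 50.2% were positive and 5.69% were higher at that level. The summed level of these markers ran from 1117 to 2146 CPM in WT/mut and from 847 to 1647 CPM in WT libraries. This sum was highest in WT/mut replicate 9. Cd74, the most abundant of them, stood at 724 to 1425 CPM in WT/mut and 567 to 1120.2 CPM in WT libraries. Its highest value was in WT/mut replicate 6, with replicate 9 at 1281 CPM.

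Germinal centre B cell markers (13 tested) had 10 positive and 3 negative members. At an unadjusted p under 0.05, 6 were higher and 1 lower, against 5.69% and 6.46% of all tested genes. Those shares also apply to the lists that follow. The sum of the germinal centre markers ran from 536 to 700 CPM in WT/mut and from 560 to 636 CPM in WT libraries, with replicate 9 at 565 CPM. S1pr2, which Tfh cells also express, gave 259 to 366 CPM of the WT/mut sums and 274 to 350 CPM of the WT sums. Plasma cell markers summed to 2380 to 3463 CPM in the WT/mut group and 2252 to 2819 CPM in WT libraries (8 of 13 positive, 6 higher and 0 lower at that level). Ighm, the most abundant, gave 1438 to 1959 CPM of the WT/mut sums and 1740.4 to 2313 CPM of the WT sums (-0.17 ± 0.12). Jchain, Igha, Iglc1 and Igkc were named after their values were seen. Jchain (2.86 ± 0.53, edgeR adjusted p = 0.0904) and Igha (3.29 ± 0.66, edgeR adjusted p = 0.106) were higher in every WT/mut library than in every WT library. Iglc1 (4.30 ± 1.2) was also higher in every WT/mut library, but unevenly. It stood at 125, 4.02, 3.85, 28.98 and 4.11 CPM in WT/mut replicates 6 to 10, against 1.17 to 2.47 CPM in WT libraries. Replicates 6 and 9 thus lay far above the other WT/mut libraries. Igkc was at 1.63 ± 0.45. Red cell markers summed to 446 to 919 CPM against 153 to 341 CPM (5 of 6 positive, 5 higher at that level), with Hbb-bs at 143 to 288 CPM against 35.9 to 105 CPM. Epithelial markers (2 of 10 positive) summed to 36.2 to 270 CPM against 52.1 to 452 CPM, with Fabp2 at 13.1 to 103.7 CPM against 15.5 to 198 CPM, and myeloid markers (6 of 8 positive) to 63.2 to 338 CPM against 67.7 to 199 CPM, with Lyz2 at 31.9 to 157 CPM against 25.9 to 114 CPM. No B cell or T cell marker was at 0 in any library. Among the others named here, 1 plasma cell (Tnfrsf17), 1 red cell (Klf1), 3 germinal centre (Gcsam, Nuggc, Mybl1), 3 epithelial (Krt18, Krt20, Cdh1) and 4 myeloid markers (Itgam, Cd14, S100a8, S100a9) were at 0 in at least 1 library, and none in all 9. Tfh and T cell markers summed to 7184 to 7563 CPM in the WT/mut group and 7596 to 8757 CPM in WT libraries, lowest in replicate 9, with Pdcd1, the gene of PD1, at 1635 to 1987 CPM and 1497 to 2197 CPM. Of these 10 markers, 7 were negative, 4 were lower and 0 higher at an unadjusted p under 0.05, and 0 were called by edgeR. Named after their values were seen, the costimulatory receptor gene Icos (-0.52 ± 0.09, edgeR adjusted p = 0.0721) and the cytokine gene Il21 (-0.55 ± 0.12, edgeR adjusted p = 0.142) were lower in every WT/mut library than in every WT library. The part of these other cells in the values of the members was not tested.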

How the data were processed

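Libraries were made with a low-input SMART-Seq kit from 300 pg of RNA, per the labels' protocols. The authors deposited a table of expected counts, in part fractional; cutadapt 2.10, STAR 2.5.3, RSEM 1.3.0, DESeq2 and the mm10 build are named, per the submitters' processing notes. An annotation release was not given in the sources used here. Reads that fit near-identical copies are divided by estimation, so values of 5 members with named copies (Ccnb1, Ccnb2, Pcna, Tyms, Stmn1) are uncertain; 13 members overlap exons on the other strand, which this kit does not resolve.

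Columns were matched to samples by replicate number. Counts were rounded, filtered with filterByExpr (minimum count 10, minimum total 15), scaled by TMM and tested, 5 WT/mut against 4 WT libraries, with the edgeR 4.0.16 quasi-likelihood F test (robust, R 4.3.3) and Benjamini-Hochberg adjustment over 15521 genes. SE is the absolute log2 fold change over the square root of F. CPM values use the same scaling. Lengths are exon unions of GENCODE M21 on GRCm38, which holds 54079 of 54146 table identifiers, matched without their version. Alternatives were DESeq2 1.42.0, limma 3.58.1 voom with and without library weights, other scalings and filters, a fit without robust moderation, and leaving out libraries. The test was checked on simulated counts.

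The members and lists were chosen with earlier results of these data known. Library values are given for the member of lowest p in each of 8 roles, for 8 genes that stand for a phase, and for members with a negative fold change. The library values of Bub1 were added after they were seen. Of each list of other cycle genes the 2 of lowest p are named, and of each marker list the most abundant gene beside defining markers. Some listed markers are not reported here.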

Additional observations from a re-analysis of the deposited data

Results flagged for a closer look

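A library that stood apart from the rest of its group was looked for in 98 sets of values, 49 measures in each of the 2 genotypes, by comparing its gap to the nearest library with the whole range of the group. Chance alone would mark about 1 in 20 such sets if they were independent, and 10 were marked. These sets share libraries, and some are sums or medians of the other genes. The count therefore cannot show an excess over chance. WT/mut replicate 9 was the highest library in 7 of these 10. It stood at 9.44 CPM for E2f8 (next library 1.95 CPM), at 46.5 CPM for Top2a (next 22.1 CPM), at 18.4 CPM for Ncapg (next 11.3 CPM), at 31.5 CPM for Kif11 (next 13.9 CPM) and at 17.6 CPM for Ube2c (next 7.59 CPM). Its G2/M members summed to 727 CPM (next 462 CPM), and their median log2 ratio to the WT mean was 0.98 (next 0.27). The other 3 were E2f1, lowest in WT/mut replicate 7 at 3.67 CPM, Mcm4, highest in WT replicate 5 at 154 CPM among WT libraries, and Ccnb2, highest in WT replicate 1 at 10.6 CPM among WT libraries.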

How the results depend on the processing

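In all 18 alternatives, edgeR, DESeq2 or limma-voom called 0 members. Leaving out 1 library at a time, the number with an unadjusted p under 0.05 ran from 2 (without WT/mut replicate 9) to 11 (without WT replicate 5). It was 1 with WT/mut replicates 7 and 9 both left out, a choice made after the data were seen. Of all genes tested in those fits, 9.46%, 10.6% and 6.11% in this order had such a p in either direction. The median log2 fold change stayed positive, from 0.17 to 0.42 for all members, 0.10 to 0.21 for S phase and 0.18 to 0.53 for G2/M members when 1 library was left out. With replicates 7 and 9 out, the S phase median was 0.068. Signs held for 29 of 45 members in all alternatives and turned for 16 in some. With limma-voom and library weights the turned values were 0.21 (Ccne1), 0.0093 (Mcm4), -0.0036 (Mcm5), -0.0023 (Ccna2), -0.0064 (Cdk1), -0.22 (Plk1) and -0.094 (Cdc20), with limma-voom -0.091 (Plk1), and with library size as the only scaling 0.0057 (Mcm4). With replicates 7 and 9 out they were 0.068 (Mcm4), -0.065 (Mcm5), -0.0097 (Rrm2), -0.0013 (Tyms), -0.0061 (Tk1), -0.20 (Ccna2), -0.14 (Cdk1), -0.15 (Plk1), -0.028 (Top2a), -0.55 (Bub1), -0.19 (Birc5), -0.11 (Kif23) and -0.092 (Cdc20). With 1 library left out, ranges that crossed 0 were -0.28 to 0.057 (Ccne1), -0.17 to 0.028 (Cdt1), -0.084 to 0.084 (Mcm4), -0.018 to 0.13 (Mcm5), -0.0055 to 0.42 (Rrm2), -0.33 to 0.052 (Ccnb1), -0.25 to 0.17 (Plk1), -0.51 to 0.94 (Bub1), -0.0039 to 0.59 (Birc5), -0.077 to 0.33 (Kif23) and -0.040 to 0.25 (Cdc20). Bub1, at 0.33, was also moved to 1.54 by limma-voom and to 2.65 by limma-voom with library weights. The cause was not tested. DESeq2 gave no p for E2f8. No paired analysis was possible because the 2 genotypes share no replicate number. Low counts limit Bub1 and E2f8 most, and intervals of SE cover the spread between these libraries only.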
